A study of Mus musculus with 8 samples.

Results

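The RNA of naive CD4+ T cells lacking Ezh2 was compared with that of wild-type cells, gene by gene, in 1 library of each genotype. Of 22410 genes in the RNA files, 5347 (23.9%) had a signal of 1 or more in the higher of the 2 libraries and were compared. Of these, 4795 passed that minimum in both libraries, 316 through the WT value only and 236 through the Ezh2 KO value only, so the last group could differ in only one way. The files give 332 of the 5347 by Ensembl identifier alone, and the gene table in the reference names 210 of them.

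The series measured mRNA and the histone mark H3K27me3. The cells were naive CD4+ T cells that had been isolated from 129SV/B6 lymph nodes. The genotypes are WT, Ezh1-/- (Ezh1 KO), Ezh2-/- (Ezh2 KO) and Ezh1-/- Ezh2-/- (double KO), each with 1 library per assay, 8 libraries in all. For the Ezh2 KO and the double KO alike, the deletion comes from floxed Ezh2 alleles and CD4-cre, a Cre recombinase under Cd4 regulatory sequence that acts as T cells develop in the thymus. Ezh1 is given as -/- with no Cre, and WT is the only genotype with both enzymes intact. Neither the age of the mice nor the number pooled is given in the sources used here. With 1 library a side there is no SD, p or test, and "higher" and "lower" describe these libraries only, not the genotypes.

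Ezh2 and Ezh1 are alternative catalytic subunits of Polycomb repressive complex 2 (PRC2), which methylates lysine 27 of histone H3 and keeps many lineage and developmental genes silent. In T cells Ezh2 is known for holding back effector, cytotoxic and innate-like programmes. Interferon-stimulated genes, the largest group among the differences below, are switched on through the interferon-stimulated response element (ISRE) in their promoters.

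RNA signal here is the height of the coverage peak of each exon, averaged over the gene, per M reads and not divided by gene length, so it is compared here between libraries and never between genes. The height of 1 read gave depths of 36.1 M reads for WT, 70.4 for the Ezh1 KO, 40.7 for the Ezh2 KO and 94.1 for the double KO. The log2 ratio of Ezh2 KO over WT was computed after adding 0.1 to both values, which understates the difference of low genes. The labelled cell type was checked by its markers. All 22 T cell receptor complex and signalling genes were at 1 or more in each of the 4 libraries, and of 25 naive T cell genes 22 were in WT against 22 in the Ezh2 KO. The summed signal of 26 B cell genes was 11.2 in WT against 14.6 in the Ezh2 KO, and that of 28 CD8 T and NK cell genes was 8.78 and 15.4. No gene of the sex-linked list was analysed here.

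The targeted gene did not check the label of the Ezh2 KO library. Ezh2 RNA signal, a mean over 21 exons, was 0.925 in WT, 0.913 with Ezh1 deleted, 1.08 with Ezh2 deleted and 1.17 with both deleted. Which exons the floxed allele loses was not resolved by this mean. Ezh1 RNA signal was 1.05 in WT against 1.12 in the Ezh2 KO, and was 0.196 with Ezh1 deleted and 0.194 with both deleted, so Ezh1 was low in exactly the libraries labelled as lacking it. Of the other PRC2 subunits, Suz12 was at 2.06 in WT against 2.52 in the Ezh2 KO, and Eed at 3.93 and 3.69. None of the 10 PRC2 genes compared was 2-fold different, and their median log2 ratio was 0.07.

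Most genes were close to equal. The median log2 ratio over the 5347 genes was -0.04, the 5th and 95th percentiles were -0.48 and 0.48, and 5016 genes (93.8%) lay within 1.5-fold, 181 (3.39%) being at least 1.5-fold higher and 150 (2.81%) at least 1.5-fold lower. At least 2-fold higher in the Ezh2 KO were 59 genes (1.1% of those compared), and at least 2-fold lower were 21 (0.393%). Of the 59, 34 passed the minimum only through the Ezh2 KO value. Among the 5111 genes at 1 or more in WT, 25 (0.489%) were 2-fold higher, and among the 5031 at 1 or more in the Ezh2 KO 12 (0.239%) were 2-fold lower. By the median over exons as well as the mean, 46 of the 59 were 2-fold higher (0.86% of those compared) and 17 of the 21 were 2-fold lower (0.318%).

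**Figure D1:**
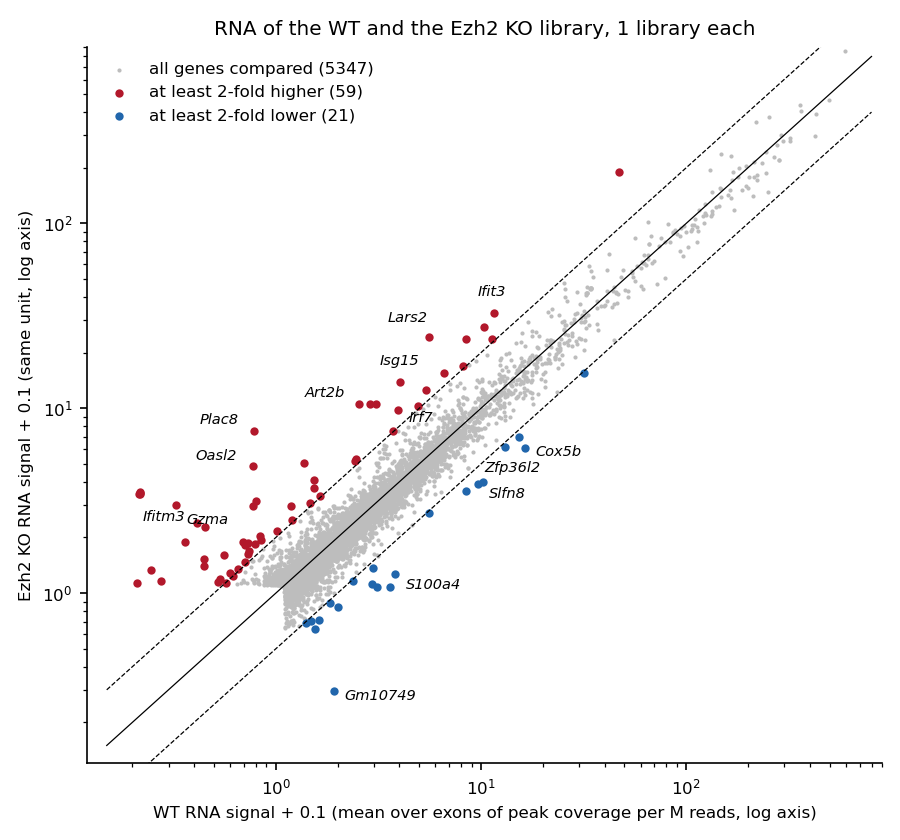
RNA signal per M reads, plus 0.1, of 5347 genes in WT (x axis) and the Ezh2 KO (y axis), both axes logarithmic. The solid line is equality and the dashed lines are 2-fold; the 59 higher genes (red) lie mostly at low WT signal, and the 21 lower genes (blue) lie nearer the line.

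The largest group among the higher genes was interferon-stimulated. Compared genes on the interferon lists numbered 36, 23, 14 and 33 of the 5347, with Ifih1 shared between lists. The 4 interferon lists hold 20 of the 59 genes, and the ISRE core GAAANNGAAA, searched on both strands in the 250 bases before the start site, was found in 15 of 49 promoters of the higher genes (30.6%). It was in 1 of 14 promoters of the lower genes (7.14%), in 172 of 4954 promoters of all compared genes (3.47%) and in 515 of 17967 promoters in the files (2.87%). The core was in 15 of 34 promoters of compared antiviral effectors (44.1%) and in 7 of the 10 among them that were 2-fold higher (70.0%). The gamma-interferon element TTCNNNGAA (both strands, overlaps with an ISRE core not removed) was in 5 of the 49 (10.2%) and in 295 of the 4954 (5.95%). A match is a run of letters and not a bound site.

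The promoters of 4 of the effectors are printed because they hold the ISRE core counted above, and that of Plac8, with no ISRE core, for comparison, because its RNA and its promoter mark both differed. Each is the 250 bases before the authors' start site, 5′ to 3′ on the gene's strand, from the mm9 genome, with ISRE cores in capitals. The windows are chr4:155574906-155575155 for Isg15 (minus strand), chr19:34657771-34658020 for Ifit3 (plus), chr5:121357531-121357780 for Oas1a (minus), chr7:148196613-148196862 for Ifitm3 (minus) and chr5:101001265-101001514 for Plac8 (minus).
Isg15: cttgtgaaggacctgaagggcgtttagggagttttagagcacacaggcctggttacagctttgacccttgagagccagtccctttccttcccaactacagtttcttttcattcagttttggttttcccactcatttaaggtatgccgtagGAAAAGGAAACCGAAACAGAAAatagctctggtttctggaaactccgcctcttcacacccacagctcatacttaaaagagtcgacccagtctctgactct
Ifit3: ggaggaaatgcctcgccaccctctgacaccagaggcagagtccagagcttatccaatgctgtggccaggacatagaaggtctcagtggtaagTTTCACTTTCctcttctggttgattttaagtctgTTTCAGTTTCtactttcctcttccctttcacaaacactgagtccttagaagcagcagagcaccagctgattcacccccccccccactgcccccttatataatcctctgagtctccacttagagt
Oas1a: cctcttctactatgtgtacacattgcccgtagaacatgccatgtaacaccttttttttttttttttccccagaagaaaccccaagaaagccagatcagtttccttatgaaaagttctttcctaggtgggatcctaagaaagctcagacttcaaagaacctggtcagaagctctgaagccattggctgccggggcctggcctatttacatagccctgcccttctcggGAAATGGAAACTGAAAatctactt
Ifitm3: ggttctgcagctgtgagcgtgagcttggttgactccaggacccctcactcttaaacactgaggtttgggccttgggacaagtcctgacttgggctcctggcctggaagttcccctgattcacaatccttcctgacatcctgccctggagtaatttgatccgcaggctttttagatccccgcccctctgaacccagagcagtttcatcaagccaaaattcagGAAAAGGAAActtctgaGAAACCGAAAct
Plac8: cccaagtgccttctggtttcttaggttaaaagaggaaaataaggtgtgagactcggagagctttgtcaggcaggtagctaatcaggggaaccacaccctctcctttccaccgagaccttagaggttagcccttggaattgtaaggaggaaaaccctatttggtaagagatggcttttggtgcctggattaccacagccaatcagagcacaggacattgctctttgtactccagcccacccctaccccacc
The Isg15 promoter holds 3 cores that share bases, the first beginning 100 bases before the start site. Ifit3 has 2 separate cores at 158 and 124 bases. In Oas1a 2 overlapping cores begin at 24 and 18 bases, and in Ifitm3 2 cores begin at 29 and 12 bases.

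The antiviral effectors act inside infected cells on viral RNA, translation or membrane fusion. Isg15, a ubiquitin-like modifier, had RNA signals of 3.94 in WT, 5.14 with Ezh1 deleted, 13.8 with Ezh2 deleted and 10.9 with both deleted, a log2 ratio of 1.78 for the Ezh2 KO over WT. Ifit3, which binds other Ifit proteins on viral RNA, was at 11.5, 15.9, 32.9 and 32.4 in the same order (log2 ratio 1.51). For both genes the 2 libraries with the Ezh2 deletion were above the 2 without it. Ifitm3, a membrane protein that blocks viral entry, was at 0.351, 0.416, 2.18 and 1.57 (log2 ratio 2.34). Rsad2, whose product viperin makes a chain-terminating nucleotide, was at 0.593, 0.909, 1.80 and 2.07 (log2 ratio 1.45). Ifi44 was at 0.314, 0.598, 2.29 and 3.14 (log2 ratio 2.53), with the double KO the highest of the 4.

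Oligoadenylate synthetases sense double-stranded RNA and activate RNase L. Of the 5 genes of this family compared, chosen by name from the effector list, 4 were 2-fold higher, against 1.1% of all compared genes. All 4 were below 1 in WT and were compared only because of their Ezh2 KO signal. None of these 4 could have come out lower, so their share cannot be weighed against the 1.1%. Oasl2, a synthetase-like member of the family, was at 0.677 in WT, 1.30 with Ezh1 deleted, 4.77 with Ezh2 deleted and 3.00 with both deleted (log2 ratio 2.65). Oas1a was at 0.698, 0.900, 3.05 and 2.29 (log2 ratio 1.98). Oas2 and Oas3 had log2 ratios of 1.36 and 1.35, and Oas1b, at 1.00 in WT against 1.34 in the Ezh2 KO, had 0.38. These genes lie close together or have related copies, and how reads shared by paralogs were treated beyond the single-location filter is not given in the sources used here. Mx1, a dynamin-like GTPase that the files give by Ensembl identifier, was at 0.748, 0.912, 1.85 and 2.67 (log2 ratio 1.20). Eif2ak2, the kinase PKR that stops translation, was at 1.54, 1.95, 3.26 and 2.94 (log2 ratio 1.03).

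Over the whole effector list, 38 of the 43 genes in the files were higher in the Ezh2 KO, with a median log2 ratio of 0.78; over all 22410 genes 54% were higher and the median was 0.02. Of the 43, 36 were at 1 or more in the higher library, 9 of them through the Ezh2 KO only. Among the 36, 11 were 2-fold higher and 0 lower, against 1.1% and 0.393% of all compared genes. Restricted to the 27 effectors at 1 or more in WT, 3 were 2-fold higher, against 0.489% of the genes with that minimum, and the median was 0.46, against -0.05. The members that were lowest in the ratio were Ifi204, at 1.39 in WT against 0.730 in the Ezh2 KO (log2 ratio -0.84), and Ifi27l1 (-0.47).

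**Figure D2:**
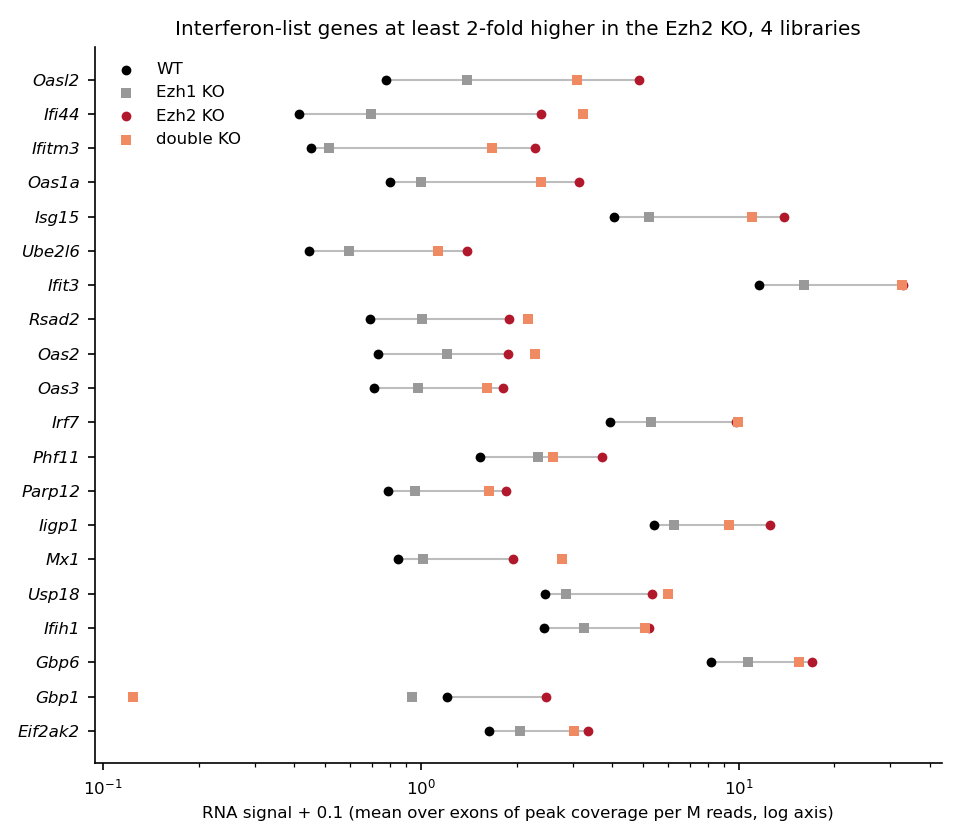
RNA signal plus 0.1 (log axis) of the 20 genes of the interferon lists that were at least 2-fold higher in the Ezh2 KO, in all 4 libraries, ordered by the Ezh2 KO over WT ratio; 1 point is 1 library and the grey line joins WT to the Ezh2 KO. The double KO (orange) lies near the Ezh2 KO (red) for most of them, and Gbp1 is the exception, at 0.0245 in the double KO.

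The interferon signalling list held the factors that respond to and amplify the signal. Irf7, the transcription factor that amplifies type I interferon production, was at 3.85 in WT, 5.21 with Ezh1 deleted, 9.69 with Ezh2 deleted and 9.82 with both deleted (log2 ratio 1.31). Usp18, which removes Isg15 and dampens the receptor, was at 2.35, 2.77, 5.24 and 5.89 (log2 ratio 1.12). Ifih1, the cytosolic RNA sensor MDA5, was at 2.34, 3.16, 5.12 and 4.99 (log2 ratio 1.09). These 3 were the 2-fold higher genes among the 23 compared, against 1.1% of all compared genes, with a median of 0.28, and Ifih1 is also counted in the list of other interferon-induced genes. Stat2 was at 1.07 in WT and 1.77 without Ezh2 (log2 ratio 0.67) and Irf9 at 7.87 and 7.99 (0.02). The receptor chains were all within 1.5-fold: Ifnar1 had a log2 ratio of -0.32, Ifnar2 of 0.04, Ifngr1 of 0.06 and Ifngr2 of 0.05.

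The interferon-inducible GTPases, which attack the vacuoles of intracellular parasites, had 2 of 14 genes 2-fold higher, against 1.1% of all compared genes, and a median of 0.61. These were Iigp1, at 5.30 in WT, 6.16 with Ezh1 deleted, 12.5 with Ezh2 deleted and 9.24 with both deleted (log2 ratio 1.22), and Gbp6, at 8.06, 10.6, 16.9 and 15.3 (1.06). Gbp genes are near-identical copies in tandem, so the values of single members are uncertain. Among 33 other interferon-induced genes 5 were 2-fold higher and 1 lower, against 1.1% and 0.393%, with a median of 0.53. Ube2l6, the conjugating enzyme for Isg15, was at 0.346, 0.493, 1.30 and 1.03 (log2 ratio 1.65), and Parp12, a zinc finger ADP-ribosyltransferase, at 0.688, 0.857, 1.75 and 1.54 (1.23). Antigen presentation differed less: none of 17 class I genes was 2-fold different (median 0.10), and B2m, the class I light chain, was at 252 in WT against 378 in the Ezh2 KO (log2 ratio 0.59).

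**Figure D3:**
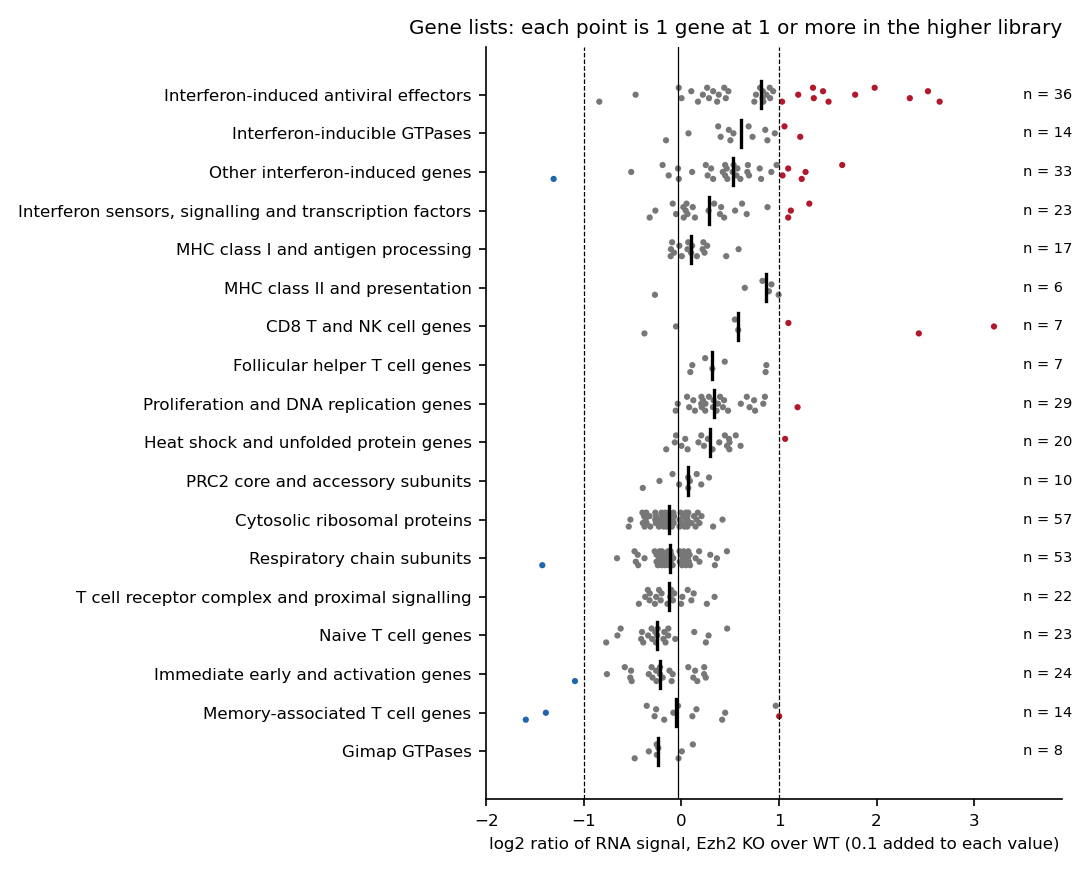
log2 ratio of RNA signal, Ezh2 KO over WT, of each gene at 1 or more in the higher library in 18 gene lists. Thick bars are list medians, the solid line is the median of all compared genes (-0.04), dashed lines are 2-fold, red and blue points are past it, and n is the number of genes; the interferon lists sit to the right and the naive T cell list (median -0.25) to the left.

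Some genes of cytotoxic, NK and innate-like T cells were also higher. Of 7 compared CD8 T and NK cell genes 3 were 2-fold higher, and of 7 compared innate-like T cell genes 2, against 1.1% of all compared genes; of those at 1 or more in WT, 0 of 3 and 0 of 5 were, against 0.489%. Plac8, a small protein of effector and innate-like lymphocytes (chromosome 5, 100982744 to 101001264 in mm9), was at 0.680 in WT, 0.731 with Ezh1 deleted, 7.47 with Ezh2 deleted and 3.04 with both deleted, a log2 ratio of 3.28. Gzma, the serine protease granzyme A, was at 0.226, 0.270, 2.90 and 1.13 (log2 ratio 3.20). Both genes were high in the 2 libraries with the Ezh2 deletion and low in the 2 without. Klrb1c, the NK receptor NK1.1, was high in the Ezh2 KO alone, at 0.110, 0.0940, 1.03 and 0.0498 (log2 ratio 2.43). Ccl5, a chemokine of effector T cells, was at 0.918, 1.47, 2.08 and 2.56 (log2 ratio 1.10).

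The whole marker lists are given beside these genes because the sort could hold other cells. Of 28 CD8 T and NK cell genes in the files, 21 were higher in the Ezh2 KO, against 54% of all 22410 genes. The median log2 ratio of the 28 was 0.50, and over the 3 at 1 or more in WT the median was -0.05. Their summed signal was 8.78 in WT, 8.26 with Ezh1 deleted, 15.4 with Ezh2 deleted and 11.6 with both deleted. The CD8 coreceptor genes did not share the difference: Cd8a was at 0.201 in WT and 0.236 without Ezh2, and Cd8b1 at 1.02 and 0.975. Ncr1, the NK receptor NKp46, was at 0.0657 and 0.0737, Gzmb at 0.0871 and 0.105, and Prf1, perforin, at 1.43 and 1.07. The innate-like T cell list summed to 12.8, 11.3, 22.7 and 14.9, with 14 of 18 genes higher. Plac8 is on this list and by itself adds 0.680, 0.731, 7.47 and 3.04 to those sums. The list's factor Zbtb16 (PLZF) was below the minimum, at 0.0470, 0.0915, 0.619 and 0.0430, and Cd160 was at 0.180, 0.164, 0.794 and 0.188. More cells of a type and more RNA per cell cannot be told apart in these bulk libraries, and the part of other cells in the result was not tested.

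Some markers of further cell types differed too. The shares below are to be read against all 22410 genes, of which 54% were higher in the Ezh2 KO, with a median of 0.02. Igj, the joining chain of secreted IgM and IgA, was at 0.260 in WT, 0.423 with Ezh1 deleted, 1.79 with Ezh2 deleted and 0.419 with both deleted (log2 ratio 2.39), while the plasma cell genes Prdm1 and Sdc1 were not higher, at 0.165 in WT against 0.116 in the Ezh2 KO and at 0.0432 against 0.0351. Of 11 plasma cell genes 7 were higher in the Ezh2 KO, with a median of 0.14, and their sums were 10.2, 9.20, 11.6 and 10.1. Of 26 B cell genes 23 were higher in the Ezh2 KO, with a median of 0.50, and their sums were 11.2, 10.7, 14.6 and 23.2, highest in the double KO. Class II genes, which mouse B cells and dendritic cells express, had a median of 0.86 over 6 compared genes with none past 2-fold; H2-Aa was just under it, at 0.771 in WT against 1.64 in the Ezh2 KO (log2 ratio 1.00 when rounded). Cd74, the invariant chain, was at 1.51, 1.87, 2.77 and 5.30. None of 12 erythroid and platelet genes reached 1 in any library; 7 were higher in the Ezh2 KO (median 0.02), but their sums were 1.11, 0.428, 0.211 and 0.207. The haemoglobin gene Hba-a1, near-identical to Hba-a2, was at 0.399, 0.124, 0.0246 and 0.0410. What these cells add to other differences was not tested.

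Further genes were at least 2-fold higher as well. Ccr9, a gut-homing and thymocyte chemokine receptor, was at 0.632 in WT, 0.500 with Ezh1 deleted, 1.54 with Ezh2 deleted and 0.874 with both deleted (log2 ratio 1.16). Art2b, a T cell surface ADP-ribosyltransferase, was at 2.45, 3.19, 10.5 and 5.23 (log2 ratio 2.06). Id2, an inhibitor of E proteins that favours effector and innate fates, was at 3.65, 3.91, 7.41 and 4.58 and sat at the 2-fold threshold (log2 ratio 1.00). Mid1, an X-linked ubiquitin ligase, was at 0.145, 0.505, 1.24 and 0.466 (log2 ratio 2.45 by the mean and 1.37 by the median over exons). None of 7 follicular helper genes compared was 2-fold different, and their median was 0.32. Pdcd1 was at 0.610 in WT against 1.20 in the Ezh2 KO, and Maf at 0.732 and 1.41. These are among 3 of the 7 that passed through the Ezh2 KO value only, and over the 4 at 1 or more in WT the median was 0.18. For the double KO over the Ezh1 KO the median of the 7 was -0.12, with 2 above 0.

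Genes of the naive state were slightly lower in the Ezh2 KO. Of 25 in the files 4 were higher, against 54% of all 22410 genes. Of the 23 compared 0 was 2-fold different, against 1.1% higher and 0.393% lower of all compared genes. The median of the 23 was -0.25 against -0.04 over all compared genes. Klf2, the factor that maintains quiescence and trafficking, was at 4.53 in WT, 3.51 with Ezh1 deleted, 2.91 with Ezh2 deleted and 4.00 with both deleted (log2 ratio -0.62). Its target S1pr1, the receptor for egress from lymph nodes, was at 20.4, 15.1, 12.9 and 13.1 (log2 ratio -0.65). Ccr7, a homing receptor for lymph nodes, was at 6.24 in WT and 5.68 without Ezh2. Dapl1 was at 17.9, 16.1, 10.4 and 4.06 (log2 ratio -0.77), lowest in the double KO. The T cell receptor list had a median of -0.13, with Cd3e at 5.39 and 6.49 and Lck at 17.7 and 14.1.

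Proliferation genes were slightly higher. Of 63 in the files 58 were higher in the Ezh2 KO, against 54% of all genes, with a median of 0.32, against 0.02. A single gene, 1 of the 29 compared, was 2-fold higher, against 1.1% of all compared genes. Of the 29, 8 had passed through the Ezh2 KO value only, and 0 of the 21 at 1 or more in WT was 2-fold higher. The 2-fold higher gene was Birc5, survivin, at 0.641 in WT, 0.618 with Ezh1 deleted, 1.59 with Ezh2 deleted and 1.06 with both deleted (log2 ratio 1.19). Mki67 was at 0.8848 in WT and 1.499 without Ezh2, and Top2a at 1.505 and 2.80. The CDK inhibitor Cdkn2c (p18) was at 0.426, 0.406, 1.04 and 0.596 (log2 ratio 1.12). The 20 compared heat shock genes had a median of 0.30, with 17 of 20 higher, against 43.6% of all compared genes. Of the 20, 1 was 2-fold higher, against 1.1%. It was Hsph1, a chaperone of the Hsp110 family, at 1.37, 1.36, 2.97 and 2.40 (log2 ratio 1.06).

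The 21 lower genes formed no group as large. They include 9 genes of a single exon and 8 given by Ensembl identifier, and 9 passed the minimum through the WT value only. Single-exon genes made up 244 of the compared genes, of which 5 were 2-fold higher and 9 lower (5.74% either way), against 1.29% of the 5103 genes with more exons. A pair of neighbouring genes on chromosome 3, from the memory-associated list, was among the 21. That list did not fall as a whole. Of its 26 genes in the files 14 were higher in the Ezh2 KO (median 0.13), against 54% of all genes. Among its 14 compared genes 2 were 2-fold lower and 1, Id2, was 2-fold higher, against 0.393% and 1.1% of all compared genes. The median of these 14 was -0.06. S100a4 (90407693 to 90409967), a calcium-binding protein of memory and migrating cells, was at 3.71 in WT, 2.33 with Ezh1 deleted, 1.16 with Ezh2 deleted and 2.28 with both deleted (log2 ratio -1.59). S100a6 (90416816 to 90418336) was at 2.83, 1.57, 1.02 and 1.79 (log2 ratio -1.39). In both the WT library was the highest and the Ezh2 KO the lowest of the 4.

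Zfp36l2, an RNA-binding protein that destabilises AU-rich transcripts, was at 13 in WT, 10.4 with Ezh1 deleted, 6.05 with Ezh2 deleted and 15.9 with both deleted (log2 ratio -1.09). Cox5b, a subunit of cytochrome c oxidase, was at 16.3, 5.47, 6.01 and 9.83, with a log2 ratio of -1.42 by the mean over exons and -0.56 by the median. It was the only 2-fold lower gene of 53 respiratory chain subunits (median -0.12), against 0.393% of all compared genes, and WT stood apart from the other 3 libraries. Purb, a single-stranded DNA and RNA binding protein with 1 exon, was at 15.2, 7.55, 6.93 and 8.04 (log2 ratio -1.12), again with WT alone high. Adpgk, an ADP-dependent glucokinase, was at 1.74, 1.22, 0.781 and 0.967 (log2 ratio -1.06). Gm10749, an unannotated model, was the only gene past 4-fold lower, at 1.83, 0.686, 0.194 and 1.40 (log2 ratio -2.71).

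Slfn8 and Slfn9, growth-regulatory Schlafen genes that lie side by side on chromosome 11, differed in opposite directions. Slfn8 (82815660 to 82834312) was at 9.57 in WT, 7.94 with Ezh1 deleted, 3.80 with Ezh2 deleted and 7.36 with both deleted (log2 ratio -1.31). Slfn9 (82793131 to 82805332) was at 0.672, 1.09, 2.86 and 2.77 (log2 ratio 1.94). Their relatives Slfn1 and Slfn2 had log2 ratios of 0.46 and -0.13. The 2 genes are close paralogs and their values are uncertain, since the handling of reads that match both is known only as the filter for a single location.

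Some higher genes did not carry their signal along the whole transcript. In 54 compared genes with 3 or more exons the median over exons was under 10% of the mean in both libraries, and 5 of these were among the 59: Lars2, Lpl, Sv2c, Cplx2 and Grk1. Lars2, the mitochondrial leucyl-tRNA synthetase, was at 5.47 in WT, 10.6 with Ezh1 deleted, 24.3 with Ezh2 deleted and 15.1 with both deleted by the mean (log2 ratio 2.13), but its log2 ratio by the median over exons was -0.40. The single-exon gene ENSMUSG00000078303, which lies within the span of Lars2, was at 46.7, 83.9, 190 and 110. For Lpl, lipoprotein lipase, the log2 ratio was 1.88 by the mean and 0.06 by the median. Their differences rest on few exons.

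The genes with the largest ratio of all were pancreatic amylases. Amy2a2, Amy2a3, Amy2a4 and Amy2a5 are near-identical copies whose single values are uncertain; Amy2a3 was at 0.119 in WT, 1.89 with Ezh1 deleted, 3.42 with Ezh2 deleted and 0.253 with both deleted (log2 ratio 4.01). On seeing this, a list of pancreatic acinar genes was examined, so its direction was known in part beforehand. Of 33 in the files 31 were higher in the Ezh2 KO, and their sums were 0.810 in WT, 10.3 with Ezh1 deleted, 19.04 with Ezh2 deleted and 1.67 with both deleted, with 9 at 0 in WT. The pattern over the 4 libraries thus followed neither Ezh1 nor Ezh2 genotype. Whether pancreatic RNA entered these samples was not tested.

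The double KO against the Ezh1 KO also compares cells without and with Ezh2, and shares no library with the Ezh2 KO and WT. The double KO carries CD4-cre and the Ezh1 KO is given without it, so loss of Ezh2 and the transgene cannot be told apart in this pair. Of the 59 higher genes, 45 were higher there too (76.3%, against 59.4% of all compared genes), 33 by at least 1.5-fold (55.9%, against 2.08%) and 14 by at least 2-fold (23.7%, against 0.43%). The largest were Ifi44 (log2 ratio 2.21), Plac8 (1.92), Gzma (1.74) and Ifitm3 (1.70), and the effector list had a median of 0.55 with 9 genes 2-fold higher. The median there was 0.22 over the compared proliferation genes, 0.08 over the CD8 T and NK cell genes and 0.38 over the innate-like genes. The naive T cell list, lower in the Ezh2 KO than in WT, had a median of -0.00067 there with 11 of 23 above 0, and the T cell receptor list 0.00024. At least 2-fold lower there were 6 of the 59 (0.168% of all compared genes): the 4 amylases, Gbp1 and Gm10524. Klrb1c, Igj and Mid1 had log2 ratios of -0.37, -0.01 and -0.09. The median over the 59 was 0.69, against 0.04 over all compared genes.

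The lower genes did not recur in that second pair. Of the 21, 5 were lower in the double KO than in the Ezh1 KO, 0 by 1.5-fold (0.636% of all compared genes), and 9 were at least 1.5-fold higher (42.9%, against 2.08%). Their median was 0.41. S100a4 had a log2 ratio of -0.03, S100a6 of 0.18, Cox5b of 0.83 and Zfp36l2 of 0.61. Slfn8 was at -0.11, while its neighbour Slfn9 was at 1.27, above 2-fold as in the Ezh2 KO.

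**Figure D4:**
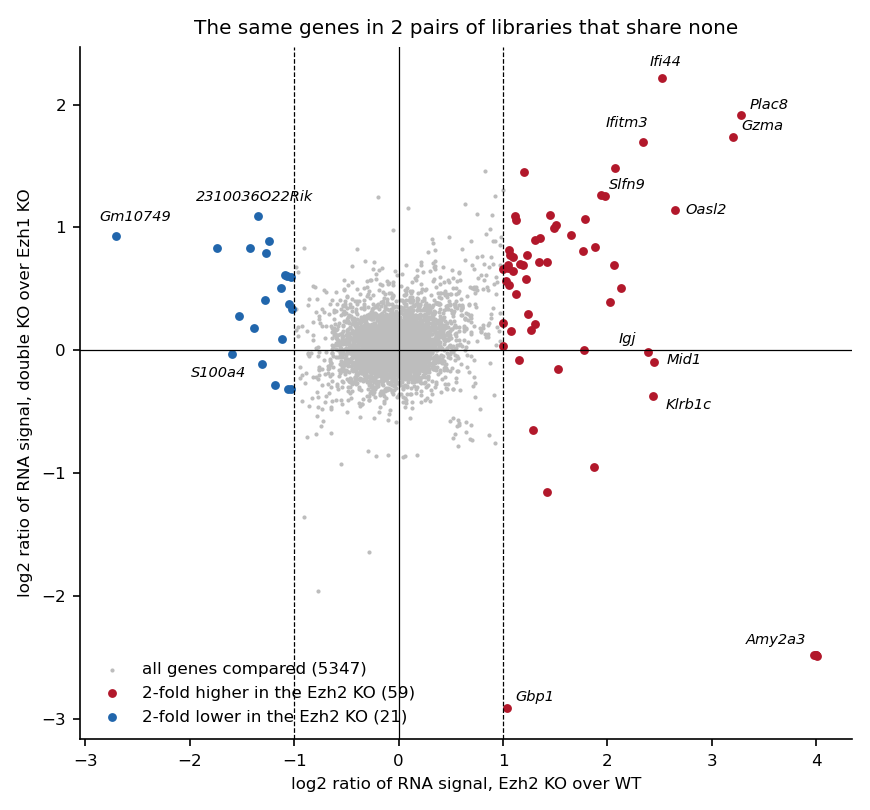
log2 ratio of RNA signal for the Ezh2 KO over WT (x axis) and for the double KO over the Ezh1 KO (y axis); each point is 1 gene and no library is in both ratios. Of the 59 higher genes (red) 45 lie above 0 on the y axis, with the amylases and Gbp1 far below it, and of the 21 lower genes (blue) 16 lie above 0.

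H3K27me3 at promoters was read from the same genotypes, as coverage per M reads summed over a 6 kb window around the start site. Over the 4941 compared genes with signal in the window, the median log2 ratio of H3K27me3 (1 added to each value) was 0.11 for the Ezh2 KO over WT, so these promoters showed no general loss of relative signal. No input or spike-in was used here, and a uniform loss would not show. Over the 44 higher genes with a window the median was -0.03 and 25 were below 0, against 30.9% of all compared genes. These 44 had more mark in WT to begin with, a median of 14.9 against 10.0 over the 4941. Whether the share below 0 goes with that starting level was not tested. At least 1.5-fold lower were 3 of the 44: Chsy1, Plac8 and Ube2l6, against 0.364% of the 4941. Over the 12 lower genes with a window the median was 0.10.

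These 3 were picked from the genes with higher RNA, and their H3K27me3 values are given as a description. At Plac8 H3K27me3 was 26.9 in WT, 26.5 with Ezh1 deleted, 14.7 with Ezh2 deleted and 13.04 with both deleted, a log2 ratio of -0.83 for the Ezh2 KO over WT with a 95% Clopper-Pearson interval of -1.13 to -0.61. At Ube2l6 it was 29.3, 28.6, 17.9 and 15.7 (log2 ratio -0.68, interval -0.95 to -0.47). At Chsy1, a chondroitin synthase with RNA signals of 0.518, 0.428, 1.14 and 0.737, it was 25.2, 24.2, 13.04 and 11.7 (log2 ratio -0.90, interval -1.22 to -0.68). In each the 2 libraries with the Ezh2 deletion were below the 2 without it, and the background median of promoters of the top WT RNA tertile was 10.0. The intervals cover counting error only, since PCR copies are not independent molecules. Ifitm3 was next, with 36.5, 41.0, 24.5 and 29.2 (log2 ratio -0.56, interval -0.78 to -0.37).

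At other leading genes the mark differed less than the RNA. Gzma was at 22.1 in WT against 20.8 in the Ezh2 KO (log2 ratio -0.08, interval -0.33 to 0.16), well above the background median, while its RNA had a log2 ratio of 3.20. Isg15 was at the background level in both, at 9.93 and 10.7 (interval -0.24 to 0.47), and Ifit3 was at 8.20 and 11.4 (log2 ratio 0.43). Slfn8 was the 1 lower gene past 1.5-fold, with more H3K27me3 in the Ezh2 KO. Its window was at 5.18 in WT against 9.78 in the Ezh2 KO (log2 ratio 0.80, interval 0.49 to 1.37). Both values were below the background median of 10.0. Of the other interferon genes, Oasl2 was near the background median (8.98 and 10.3), and Parp12 was above it in both libraries (27.3 and 28.7).

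Read from the mark's side, the number of genes was small. A WT window of at least 4 times the background median, the level called marked, was found at 48 compared genes, of which 2 (4.17%), Lpl and Sv2c, had RNA 2-fold higher, both on few exons, and 0 lower. Without that level 42 of 4893 were higher (0.858%). At 2 times the background median 13 of 327 were higher (3.98%) and 0 lower, against 31 of 4614 (0.672%). With the minimum set on the mean of the 4 libraries, which includes the Ezh2 KO value, these were 2.70% and 0.556%. Among the 13, only Lars2, Lpl, Kif1b and Id2 were at 1 or more in WT, Lars2 and Lpl on few exons. The others passed through the Ezh2 KO value only and could not have come out lower. The 3.98% and 0.672% therefore cannot be weighed against each other. Hox genes and non-lymphoid developmental factors, classic Polycomb targets, had no member at an RNA signal of 1 in any library. Across the 4941 genes the 2 log2 ratios had a Pearson r of -0.10 and a Spearman rho of -0.08, a description over genes that share the same 4 libraries.

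Most genes with less promoter mark in the Ezh2 KO had RNA within 2-fold. Of 18 compared genes with a window at least 1.5-fold lower, 13 had an RNA log2 ratio above 0, against 43.6% of all compared genes, and the median was 0.16, against -0.04. At least 2-fold higher were 3 of the 18, against 1.1% of all compared genes. They are Chsy1, Plac8 and Ube2l6, the same 3 genes described above from the RNA side. All 3 also passed through the Ezh2 KO value only, so they could not have come out lower. The same held for AI314180, Usp10, Plekho1 and Map3k5, which were below 1 in WT and above it in the Ezh2 KO. For all of these an RNA log2 ratio above 0 was fixed beforehand. Neither the 13 of 18 nor the median of 0.16 can therefore be weighed against all compared genes. Sgk3, a kinase related to Akt, had H3K27me3 of 34.8 in WT against 18.4 in the Ezh2 KO with RNA of 1.37 and 1.31. Dock8, a regulator of lymphocyte migration, had 43.8 and 27.4 with RNA of 2.89 and 3.00. In the double KO over the Ezh1 KO, 17 of the 18 windows were lower too, 8 by at least 1.5-fold. The share of all windows lower there was not computed, so the 17 cannot be weighed. Over all windows the summed H3K27me3 was also lower, at 378743 in the double KO against 411768 in the Ezh1 KO. Among 73 windows at least 1.5-fold higher 0 genes had RNA 2-fold higher and 1 lower, against 1.1% and 0.393% of all compared genes, with a median of -0.06. The Cd4 window was at 19.9 in WT, 24.1 with Ezh1 deleted, 193 with Ezh2 deleted and 212 with both deleted, with RNA of 16.6, 13.6, 15.7 and 16.3; the mark on the Cd4 locus and on copies of its sequence in the CD4-cre transgene cannot be told apart.

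**Figure D5:**
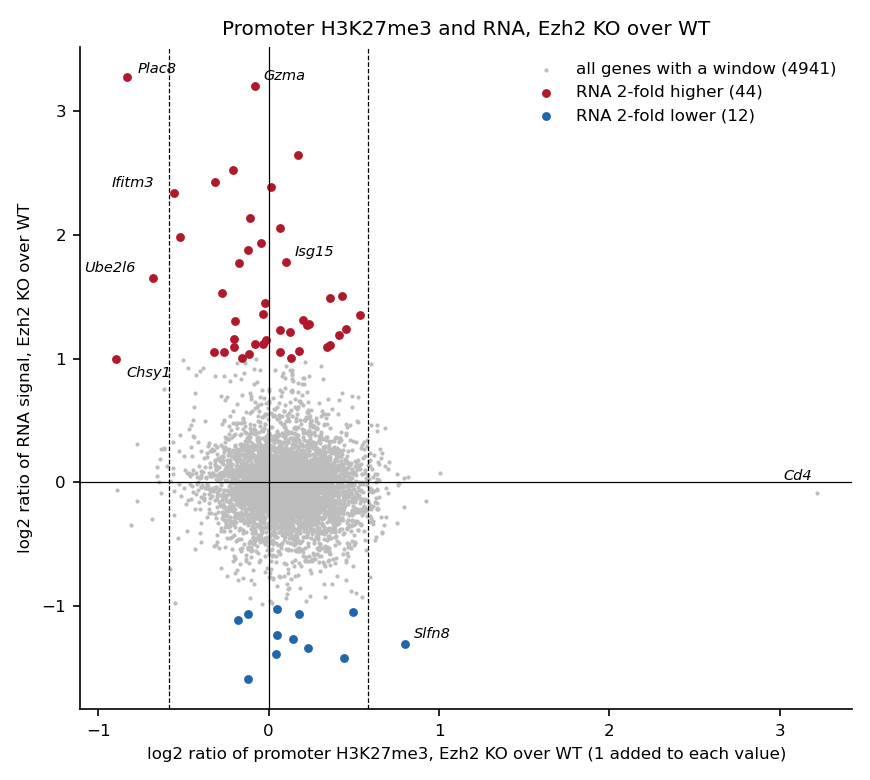
log2 ratio of promoter H3K27me3 (x axis) and of RNA signal (y axis), Ezh2 KO over WT, for 4941 genes with a window. Dashed lines are 1.5-fold; 3 of the 44 higher genes (red) lie left of them, Slfn8 is the lower gene (blue) to their right, and Cd4 stands alone at the far right with RNA near 0.

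The members near the thresholds show how fine they are. Just inside the minimum was Ccdc84, at 1.00 in WT against 0.908 in the Ezh2 KO, and just outside was Afg3l2, at 0.952 and 0.9997. Chsy1, Ctsl and Id2 were the last genes inside 2-fold higher, and H2-Aa, Csda (log2 ratio 0.98) and Rnf213 (0.98) were the first outside. On the lower side Pigp (-1.02) was inside and Epm2aip1 (-0.99) outside.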

How the data were processed

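mRNA-seq and H3K27me3 ChIP-seq libraries, 1 per genotype, were analysed from the values the authors deposited. The deposited signal, per the file headers, is coverage: for RNA the mean and median over exons of peak coverage, for ChIP the area of a window around each start site, which from the values is per M reads over 25 bp bins of 6 kb with reads extended to 151 bp. The RNA files also give another number, that of exons, per the file headers. Per the labels, Bowtie 0.12.7 aligned reads to mm9 with at most 2 errors and a single location; bcl2fastq, Cufflinks and Cuffdiff stand in the submitters' processing notes, with no role given. How the columns were computed and whether input was subtracted are not given in the sources used here. The plan allowed for counts; the signal was used as deposited. In the files 4403 genes have only an Ensembl identifier, of which 3338 were named from the gene table.

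Ratios were log2((Ezh2 KO + 0.1)/(WT + 0.1)), called at 2-fold among genes at 1 or more in the higher library; H3K27me3 ratios added 1. ChIP intervals (95%, Clopper-Pearson) used read equivalents without the added 1, so they need not be centred on the printed ratio. RNA has none, because a peak height is no count. Marked windows had 4 times the median of 6162 background windows, at genes of the top tertile of WT RNA. Promoter strand came from GENCODE vM1 for 17967 of 18603 windows. Genes named are those past 2-fold, PRC2 subunits, cell type markers, and from each other list the 6 largest ratios and the 3 highest WT values; others named (thresholds and H3K27me3 windows, the Schlafen family and acinar genes) were chosen after their values were seen. Genes and lists were chosen with earlier results of these data known. Scripts used Python 3.11.15, pandas 2.3.3 and scipy 1.17.1 and were tested on simulated data. Other pseudocounts, minimums, fold thresholds, scalings and the median over exons were tried.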

Additional observations from a re-analysis of the deposited data

Results flagged for a closer look

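Some genes differed in opposite directions in the 2 pairs of libraries that separate cells without Ezh2 from cells with it, each past 2-fold. In every one the first value is the log2 ratio of the Ezh2 KO over WT and the second that of the double KO over the Ezh1 KO. For the amylase genes, near-identical copies, these were 3.98 and -2.48 for Amy2a2, 4.01 and -2.49 for Amy2a3, 4.00 and -2.48 for Amy2a4, and 4.00 and -2.48 for Amy2a5. Gbp1, a guanylate-binding protein, had 1.04 and -2.91, and Gm10524, a single-exon model, had 1.42 and -1.16. The opposite order was seen for 2310036O22Rik, with -1.34 and 1.09. With 1 library each, these differences were not tested.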

How the results depend on the processing

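Most counts moved with the settings that decide which low genes enter. The 59 higher genes became 27 with a pseudocount of 1, 140 with no minimum, 37 with a minimum of 2, 25 with WT at 1 or more, 181 at 1.5-fold and 16 at 4-fold. The 21 lower genes became 37 by the median over exons, 9 with a pseudocount of 1, 55 with no minimum, 39 with a minimum of 0.5, 13 without genes lacking a symbol, 150 at 1.5-fold and 1 at 4-fold. The 11 higher effectors became 6 with a pseudocount of 1, 7 with a minimum of 2 and 3 with WT at 1 or more. With no minimum, 32.1% of the higher and 25.5% of the lower genes were at least 1.5-fold higher in the double KO over the Ezh1 KO. By the median over exons Cplx2 (-0.19) and Lars2 (-0.40) changed sign. No compared promoter reached 8 times the background median, so that definition gave no value. Scaling by TMM or by the median of ratios shifted all log2 ratios by 0.04 and gave 65 higher and 18 lower genes. In every setting run for single genes 24 higher and 7 lower genes stayed past 2-fold. An alternative added after seeing the data, without the amylases and the genes with signal in few exons, gave 50 and 21, with 62.0% of the 50 at least 1.5-fold higher in the double KO over the Ezh1 KO. Leaving out a replicate was not possible with 1 library a side. No paired analysis was possible because each group has 1 library. Without counts for RNA, depth limits low genes to an unknown degree: 1 read had a height of 0.0277 in WT and 0.0246 in the Ezh2 KO.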
